A study of Homo sapiens with 9 samples.

Results

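The 10 genes described here were FOS, FOSB, FOSL1, FOSL2, JUN, JUNB, JUND, EGR1, IER3 and DUSP1, a set of AP-1 subunits and immediate early genes taken by symbol from the 61552 gene rows of each library. Expression was measured by RNA-seq in MDA-MB-231, an established human triple-negative breast cancer cell line of mesenchymal appearance, carrying no engineered change (genotype WT). Cells grown in DMEM with 10% fetal calf serum were given the glycolysis inhibitor 2-deoxy-D-glucose (2-DG), a glucose analogue that is phosphorylated but not broken down further, at 10 mM or 20 mM for 24 h. The control cells received no 2-DG (0 mM) over the same time, and the study names phosphate-buffered saline as the control. There were 3 libraries per group and 9 in all; cells given lactate were not analysed here. The labels do not say that the libraries of a group came from separate cultures, so the p-values measure only the spread between these libraries, which may be technical.

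AP-1 is a dimeric transcription factor built from a Jun protein and a Jun, Fos or ATF family protein, and it binds short palindromic sites in promoters and enhancers. Many of its genes are immediate early genes, which cells switch on within minutes of a growth factor, serum or stress signal through MAP kinases, without needing new protein, and whose mRNAs decay quickly. In triple-negative breast cancer lines the Fos-related protein FOSL1 (FRA-1) is known for its part in the mesenchymal, invasive state.

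The 9 libraries held between 30974968 and 40843638 reads assigned to genes, recovered from the deposited FPKM values (fragments per kilobase of transcript and per unit of depth, a level corrected for gene length and depth). Replicates of a group correlated across genes with Pearson's r between 0.989 and 0.996, and each pair differed by more than the sampling noise of its reads. The chi-square per gene between replicates was 26.4 to 56.7 at 10 mM, 14.1 to 21.5 in control and 4.66 to 6.57 at 20 mM. The test below shares its estimate of the spread over all groups, so that the wider 10 mM spread enters every comparison. The mesenchymal markers had mean control FPKM of 285 for VIM, 117 for AXL, 103 for CAV1, 69.8 for CD44 and 14.0 for EGFR, and SPARC was low at 0.0774. ESR1 and PGR, the hormone receptors, were at 0.0034 and 0.0140, while the other hormone receptor and luminal markers had control means of 8.81 (ERBB2), 3.75 (EPCAM), 2.03 (GATA3), 0.365 (CDH1) and 0.0297 (FOXA1). The summed FPKM of these 7 genes was 14.3 to 16.3 in control, 9.97 to 11.5 at 10 mM and 9.64 to 10.2 at 20 mM, and of the 4 that could be tested 2 (ERBB2 and CDH1) were called lower at 10 mM and 3 (with GATA3) at 20 mM. The summed mesenchymal markers stood at 575 to 601, 526 to 578 and 507 to 528, with EGFR called higher and CD44 and CAV1 lower at both doses. Of the leukocyte and endothelial markers, PECAM1 (1.72) and CSF1R (0.667) led in control cells, CD68, PTPRC, VWF and CDH5 were at 0.0618, 0.0297, 0.0231 and 0.0016, and CD3E was listed at 0 in the control libraries. The summed FPKM of these 7 genes was 2.20 to 2.76 in control, 1.41 to 1.81 at 10 mM and 1.07 to 1.33 at 20 mM 2-DG, and 1 of the 3 tested was called lower at 10 mM and 2 at 20 mM. The part of these marker differences in the results below was not tested.

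Several patterns were seen among the 10 genes after 24 h of 2-DG. EGR1 and DUSP1 rose at both doses, EGR1 to 2.00 and 1.5 times the control mean and DUSP1 to 1.68 and 1.81 times. FOSL2 fell at both doses, to 0.618 and 0.556 times the control mean. JUN rose and FOSB fell at 20 mM, to 1.21 and 0.619 times the control mean, and the other 5 genes did not pass the test at either dose. As each value is an average over a whole culture, fewer cells that express a gene and less RNA per cell cannot be told apart.

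The test was limma on log2(FPKM + 1), fitted on all 9 libraries over the 16572 genes that passed a filter on low reads (10 or more in 3 libraries and 15 in total), with Benjamini-Hochberg adjustment over all of them, and a gene was called at an adjusted p under 0.05. At 10 mM 2-DG 2 of the 10 genes were called higher and 1 lower, against 29.7% of all genes tested (12.1% higher and 17.5% lower). At 20 mM 3 were called higher and 2 lower, against 37.0% of all genes tested (15.4% higher and 21.6% lower). With 10 genes, neither count lay far from the share of all genes. Between 20 mM and 10 mM 0 of the 10 genes and 0.0% of all genes were called by limma, while 2 of the 10 and 6.87% of all genes had an unadjusted p under 0.05. At that unadjusted threshold stood 5 of the 10 genes at 10 mM, against 40.4% of all genes, and 6 of 10 at 20 mM, against 46.0%. By the study's own rule, a p under 0.05 with a log2 fold change beyond 1 in size, 0 of the 10 genes changed in any comparison, against 1.74% of all genes at 10 mM, 2.92% at 20 mM and 0.00603% between the doses. That rule depends on the scale: EGR1 at 10 mM stood at 0.98, just inside the limit, and passed it with median-ratio (1.01) or upper-quartile (1.04) scaling and without any of 3 single libraries (control replicate 1, 1.04; control replicate 2, 1.03; 10 mM replicate 2, 1.07). The pseudocount of 1 also shrinks the folds of low genes throughout, so that limma-voom on the recovered reads put 730 genes higher and 857 lower by this rule at 10 mM, and 927 and 1193 at 20 mM, where the main scale gave 96 and 192, and 160 and 324.

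**Figure D1:**
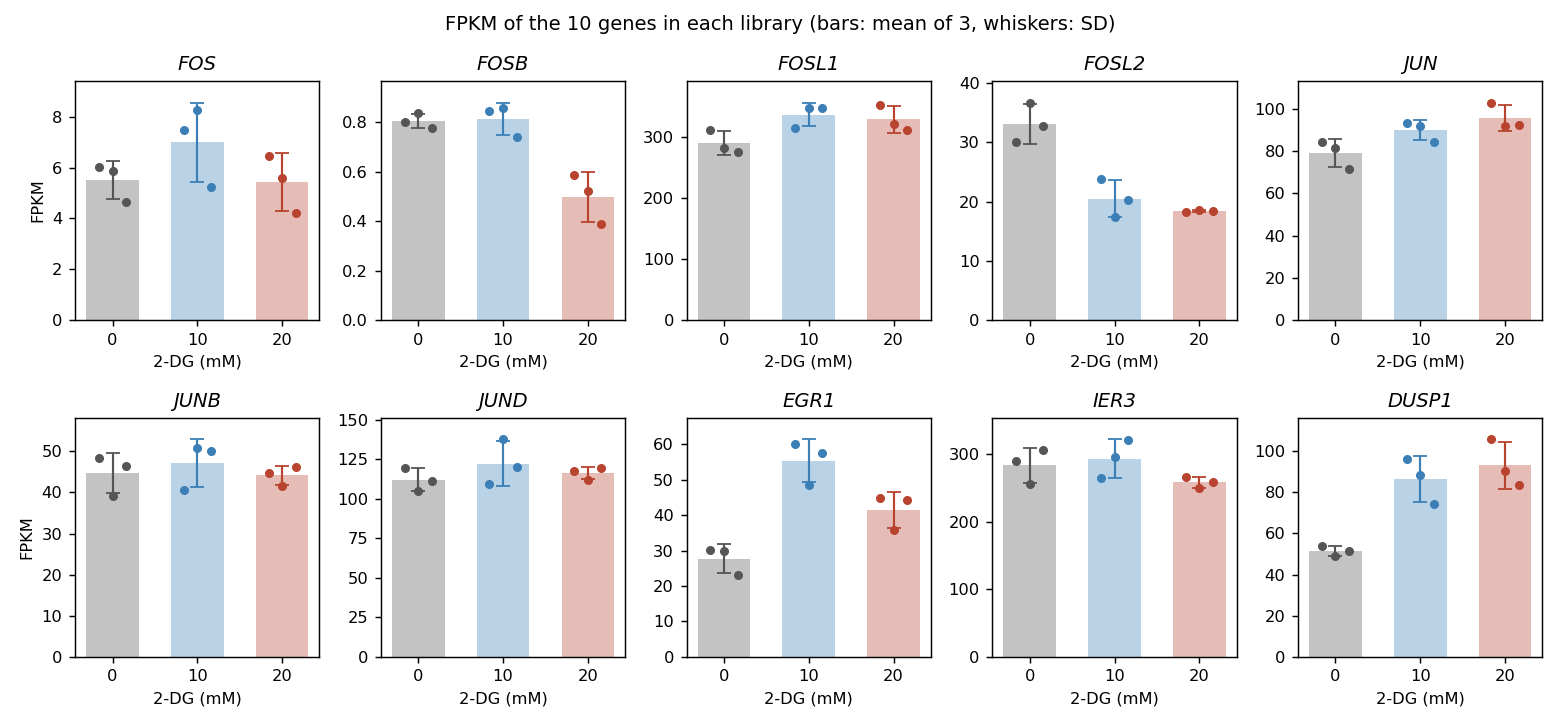
FPKM of each of the 10 genes (vertical axis, from 0, with its own scale in each panel) against the dose of 2-DG in mM, where points are single libraries, bars are means of 3 libraries and whiskers are the SD. EGR1 and DUSP1 stand above the control points at both doses, FOSL2 stands below them at both, and FOSB stands below them at 20 mM, where its mean was 0.498.

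The promoters of EGR1 and DUSP1, the genes that rose at both doses, are shown because they carry known signal-responsive elements. Each is the 250 bases before the RefSeq transcript start on GRCh38.p14, written 5′ to 3′ on the gene's own strand. The EGR1 stretch is chr5:138465229-138465478 (plus strand), and its capitals mark CArG boxes, the sites bound by serum response factor, at 105 to 96 and 83 to 74 bases before the start. The DUSP1 stretch is chr5:172771196-172771445 (minus strand), and its capitals mark a cyclic AMP response element (CRE, TGACGTCA) at 125 to 118 bases before the start.
EGR1: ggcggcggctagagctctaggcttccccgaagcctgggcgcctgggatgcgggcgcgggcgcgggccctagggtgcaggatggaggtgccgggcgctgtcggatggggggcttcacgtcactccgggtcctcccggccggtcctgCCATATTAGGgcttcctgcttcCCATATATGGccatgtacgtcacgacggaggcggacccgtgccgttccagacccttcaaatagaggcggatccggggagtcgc
DUSP1: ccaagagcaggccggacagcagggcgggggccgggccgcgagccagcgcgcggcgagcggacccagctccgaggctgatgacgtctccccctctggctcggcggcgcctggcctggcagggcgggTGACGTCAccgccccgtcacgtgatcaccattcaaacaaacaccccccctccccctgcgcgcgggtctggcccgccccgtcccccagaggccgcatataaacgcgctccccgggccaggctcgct
Promoters of 8 of the 10 genes were matched in the RefSeq table, all but FOSL1 and IER3. A CArG box lay in 1 of the 8 (EGR1) and in 1.16% of all 35116 promoters of that length, and a CRE in 2 of the 8 (DUSP1 and JUND) and in 1.65% of all. Unlike DUSP1, JUND was called at neither dose. The AP-1 site TGANTCA, the ATF4 composite site TGATGNAA, the EGR site GCGTGGGCG and the NF-kB site were found in 0 of the 8, and in 6.57%, 3.14%, 0.720% and 5.21% of all promoters, with both strands searched and no overlap between the motifs marked. Only the 250 bases before the start were searched, so that a site further upstream, in FOS or any other member, would be missed. These matches describe letters only, and their use in these cells was not measured.

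FOSL1 supplied most of the Fos family mRNA. It encodes FRA-1, lies on chromosome 11 (65892049 to 65900573, minus strand, ENSG00000175592; this and the following gene positions are from GENCODE 29 on GRCh38), and had the highest mean FPKM of the 10 genes in every group, with rank 97 among the 16572 genes tested in control cells. The control libraries were at 313, 282 and 276 FPKM, the 10 mM libraries at 315, 349 and 348, and the 20 mM libraries at 354, 322 and 313. Every 10 mM library was above every control library, by a margin as small as that between 313 and 315, while the 20 mM and control values overlapped. The log2 fold change at 10 mM was 0.22 with a standard error of 0.08 and an adjusted p of 0.0676, and at 20 mM it was 0.18 with an adjusted p of 0.103, so that neither was called by limma. Scaling the libraries by their upper quartile turned both into calls (0.28 at each dose, adjusted p = 0.0469 and 0.0415), and the 10 mM difference was also called by limma-voom on the recovered reads (adjusted p = 0.0388), without control replicate 1 (adjusted p = 0.0470) and without 10 mM replicate 1 (adjusted p = 0.0401).

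FOSL2 was the member that fell at both doses. It encodes FRA-2, the closest relative of FRA-1, and lies on chromosome 2 (28392448 to 28417312, plus strand, ENSG00000075426). Its FPKM was 30.0, 36.7 and 32.8 in the control libraries, 23.8, 17.4 and 20.3 at 10 mM, and 18.2, 18.6 and 18.5 at 20 mM. All treated libraries were below all control libraries, and the 20 mM libraries lay closer to each other than those of any other group of this gene, with a coefficient of variation of 0.993% against 10.1% in control and 15.4% at 10 mM. The log2 fold change was -0.67 at 10 mM (95% interval -0.91 to -0.44, adjusted p = 0.00114) and -0.81 at 20 mM (-1.04 to -0.58, adjusted p = 0.000267). Between the doses it differed by -0.14 (-0.37 to 0.10, adjusted p = 0.902), so that a further fall at 20 mM was not resolved.

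FOS, the prototype immediate early gene and partner of JUN in classical AP-1, was low after 24 h. It lies on chromosome 14 (75278774 to 75282230, plus strand, ENSG00000170345) and was counted with 444 to 1074 reads per library. Its FPKM was 6.03, 5.87 and 4.66 in control, 7.48, 8.25 and 5.24 at 10 mM, and 6.48, 5.61 and 4.22 at 20 mM. The third library of each group was its lowest, and the 3 groups overlapped. The 10 mM difference was 0.28 on the log2 scale (-0.10 to 0.66, adjusted p = 0.251) and the 20 mM difference was -0.03 (-0.41 to 0.35, adjusted p = 0.918), intervals wide enough to hold changes of the size seen for JUN.

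FOSB, which encodes a Fos protein best known from neurons, was the lowest of the 10 genes in every group. It lies on chromosome 19 (45467995 to 45475179, plus strand, ENSG00000125740) and had 71 to 194 reads per library. The FPKM values were 0.801, 0.835 and 0.777 in control, 0.846, 0.855 and 0.739 at 10 mM, and 0.587, 0.521 and 0.387 at 20 mM. The 20 mM libraries were below all 6 others, and the 10 mM and control libraries overlapped. At 20 mM the log2 fold change was -0.27 (-0.42 to -0.12, adjusted p = 0.0111), a scale on which the pseudocount of 1 shrinks the change of such a low gene: the log2 ratio of the means was -0.69. The call was lost when genes with few reads were kept in the test (adjusted p = 0.0684) and without 20 mM replicate 3 (log2 fold change -0.22, adjusted p = 0.0504). Between 20 mM and 10 mM the difference was -0.28 (unadjusted p = 0.00229, adjusted p = 0.339), and at 10 mM against control it was 0.01 (adjusted p = 0.955).

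Set side by side per length, the Fos family mRNA pool summed to 330 ± 18.1 FPKM in control, 366 ± 16.0 at 10 mM and 354 ± 22.6 at 20 mM (mean ± SD, n = 3 libraries each). FOSL1 made up 88.0% ± 1.40 of it in control, 92.2% ± 1.27 at 10 mM and 93.1% ± 0.227 at 20 mM, and FOSL2 made up 10.1% ± 1.38, 5.63% ± 1.11 and 5.22% ± 0.366. FOS and FOSB supplied the small remainder, 1.67% and 0.244% of the sum in control. Relative to FOSL1 in the same library, FOSL2 stood at 9.58%, 13.0% and 11.9% in the control libraries, at 7.53%, 5.00% and 5.82% at 10 mM and at 5.15%, 5.77% and 5.90% at 20 mM. This ratio, which does not depend on how libraries are scaled to each other, was lower in every treated library than in every control library. It is a description of values already tested gene by gene, and was given no test of its own.

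**Figure D2:**
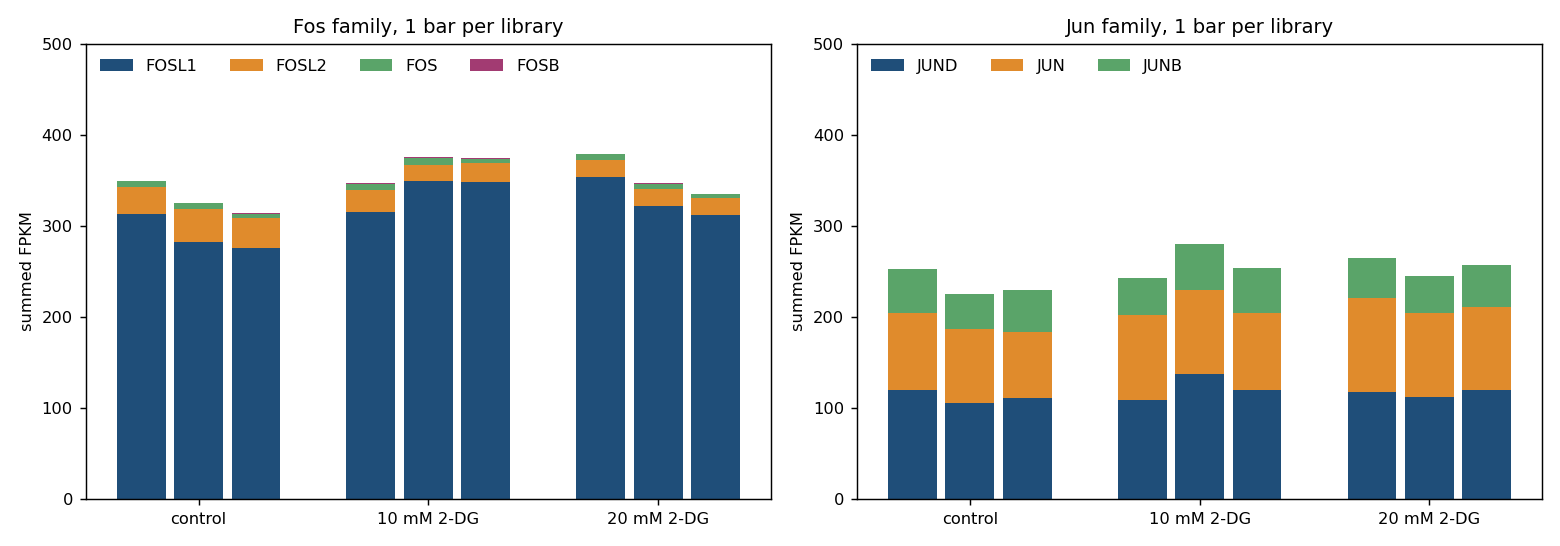
Summed FPKM (vertical axis) of the Fos genes (left) and the Jun genes (right), with 1 bar per library in replicate order within each group and colours for the genes. FOSL1 fills most of each left bar, and the FOSL2 band is narrower in the 2-DG libraries, with mean shares of 10.1% in control and 5.22% at 20 mM.

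Of the 3 Jun genes, JUN was called at 20 mM and the other two at neither dose. JUN, the first described AP-1 subunit, whose protein stress kinases of the JNK family act on, lies on chromosome 1 (58780788 to 58784327, minus strand, ENSG00000177606). It had 84.5, 81.5 and 71.7 FPKM in control, 93.4, 91.6 and 84.4 at 10 mM, and 103, 91.8 and 92.2 at 20 mM. The 20 mM libraries were all above the control libraries, while at 10 mM the lowest library fell just under the highest control. JUN was called higher at 20 mM with a log2 fold change of 0.27 (0.10 to 0.44, adjusted p = 0.0216), and at 10 mM the value was 0.18 (adjusted p = 0.110). Its call was lost without control replicate 3 (0.20, adjusted p = 0.0758), without 20 mM replicate 1 (0.22, adjusted p = 0.0908) and when genes with few reads were kept in the test (adjusted p = 0.0557).

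JUNB, which can hold back JUN-driven transcription, lies on chromosome 19 (12791496 to 12793315, plus strand, ENSG00000171223). Its libraries were at 48.5, 39.2 and 46.5 FPKM in control, 40.5, 50.9 and 50.0 at 10 mM, and 44.7, 41.6 and 46.1 at 20 mM. The groups overlapped throughout, and the log2 differences from control were 0.07 (-0.16 to 0.30, adjusted p = 0.645) and -0.01 (-0.24 to 0.21, adjusted p = 0.928). The gene shares 259 exon bases with HOOK2 on the opposite strand, and the sources used here do not say whether reads were counted by strand.

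JUND, the Jun gene that is expressed steadily in most cells, was the most abundant of the 3 and lies on chromosome 19 (18279760 to 18281622, minus strand, ENSG00000130522). FPKM was 119, 105 and 111 in control, 109, 137 and 120 at 10 mM, and 118, 112 and 119 at 20 mM. No separation of the groups was seen, with log2 differences from control of 0.12 (-0.07 to 0.31, adjusted p = 0.322) and 0.06 (-0.13 to 0.25, adjusted p = 0.644). Summed over JUN, JUNB and JUND, the Jun family stood at 236 ± 14.5 FPKM in control, 259 ± 19.0 at 10 mM and 256 ± 9.94 at 20 mM (mean ± SD, n = 3). The share of JUN in this sum was 33.6% in control, 34.8% at 10 mM and 37.3% at 20 mM, while that of JUND was 47.4%, 47.1% and 45.5%. The ratio of the Fos sum to the Jun sum was 1.40 ± 0.0388, 1.41 ± 0.0675 and 1.38 ± 0.0692 in control, 10 mM and 20 mM cells, differences smaller than the spread between libraries.

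EGR1, a zinc-finger transcription factor that serum response factor and its ETS partners switch on through the ERK pathway, had the largest rise of the 10 genes at 10 mM. It lies on chromosome 5 (138465490 to 138469315, plus strand, ENSG00000120738), just downstream of the CArG boxes printed above. The control libraries were at 30.3, 29.8 and 23.1 FPKM, the 10 mM libraries at 60.0, 48.6 and 57.6, and the 20 mM libraries at 44.8, 35.7 and 44.2. None of the 3 groups overlapped another: the 10 mM libraries were highest, the 20 mM libraries between, and the control libraries lowest. The log2 fold change was 0.98 at 10 mM (0.70 to 1.26, adjusted p = 0.000367) and 0.57 at 20 mM (0.29 to 0.85, adjusted p = 0.00585). The step from 10 mM down to 20 mM was -0.41 (-0.69 to -0.13) with an unadjusted p of 0.00895 but an adjusted p of 0.486 in limma, in a comparison where no gene was called.

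EGR1 and FOS are both classical targets of serum response factor, and their levels can be set side by side in each library. EGR1 was 5.03, 5.08 and 4.97 times FOS in the control libraries, 8.02, 5.89 and 11.0 times at 10 mM, and 6.92, 6.36 and 10.5 times at 20 mM. The ratio was higher in every 2-DG library than in every control library, and it was highest in the third library of both doses, where FOS was lowest. The control ratios lay closer together than reads can resolve, as the counting error of FOS alone was 3.82% to 4.43% there. This ratio describes values already tested gene by gene, and was given no test of its own.

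DUSP1, a nuclear phosphatase that removes the activating phosphates from p38, JNK and ERK and is itself an immediate early gene, rose at both doses. It lies on chromosome 5 (172768090 to 172771195, minus strand, ENSG00000120129), and the CRE printed above lies upstream of it. Its FPKM was 53.8, 49.2 and 51.3 in control, 96.4, 88.7 and 74.4 at 10 mM, and 106, 90.3 and 83.3 at 20 mM. All 6 treated libraries were above the control libraries, and the doses overlapped each other. The log2 fold change was 0.73 at 10 mM (0.49 to 0.97, adjusted p = 0.000797) and 0.84 at 20 mM (0.60 to 1.08, adjusted p = 0.000245), and 0.11 between the doses (-0.13 to 0.35, adjusted p = 0.940). Both DUSP1 and EGR1 stayed called against control in each alternative processing listed in the methods at the same threshold, as did FOSL2.

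IER3, a stress-inducible early gene that affects cell survival and ERK signalling, lies on chromosome 6 (30743199 to 30744554, minus strand, ENSG00000137331). Its level was second only to FOSL1, with 290, 255 and 306 FPKM in control, 264, 296 and 320 at 10 mM, and 267, 250 and 258 at 20 mM. The groups overlapped, and the log2 differences from control were 0.05 (-0.15 to 0.25, adjusted p = 0.734) and -0.13 (-0.33 to 0.07, adjusted p = 0.290). The gene shares 359 exon bases with IER3-AS1 on the opposite strand, and without counting by strand the reads of the 2 genes cannot be told apart there.

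**Figure D3:**
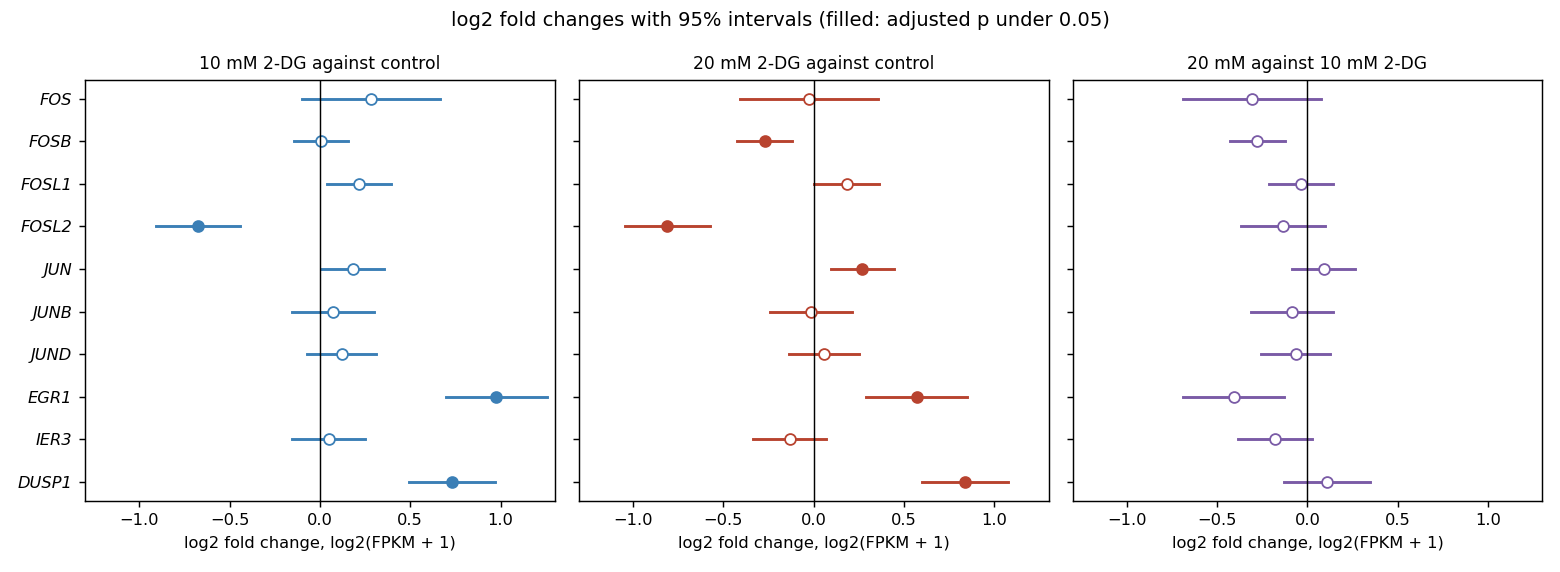
Log2 fold changes of the 10 genes (horizontal axis, on the log2(FPKM + 1) scale) for 10 mM against control, 20 mM against control and 20 mM against 10 mM, with 95% intervals from limma and filled points for an adjusted p under 0.05. The filled points are EGR1, DUSP1 and FOSL2 at 10 mM and those 3 with JUN and FOSB at 20 mM, and no point is filled between the doses.

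Over the 10 genes the median log2 fold change was 0.15 at 10 mM, where that of all genes tested was -0.01, and 0.02 at 20 mM, where that of all genes was -0.02. The median size of the change without its sign was 0.20 at 10 mM and 0.23 at 20 mM, close to the 0.16 and 0.18 of all genes. The libraries of treated and control cells did not overlap for 4 of the 10 genes at 10 mM, against 40.5% of all genes, and for 5 of 10 at 20 mM, against 53.3%. Between the doses 2 of 10 (FOSB and EGR1) did not overlap, against 11.9% of all genes. Read against these shares, the counts over the 10 genes were no result about them as a group, and the changes lay in single members.

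In order of level, FOSL1, IER3, JUND and JUN led in control cells, followed by DUSP1, JUNB, FOSL2, EGR1, FOS and FOSB. Only FOSL1 with IER3 and FOSL2 with EGR1 overlapped as neighbours in that order. At 10 mM EGR1 stood above FOSL2 without overlap and DUSP1 had come level with JUN, with overlapping libraries. At 20 mM the order was FOSL1, IER3, JUND, JUN, DUSP1, JUNB, EGR1, FOSL2, FOS and FOSB, in which JUN with DUSP1 and JUNB with EGR1 overlapped. FOSB ranked 11354 of the 16572 genes tested in control cells and 12476 at 20 mM.

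Among the other proteins that dimerise with Fos or Jun, 12 of 13 listed genes could be tested (MAF could not), of which 6 were higher and 1 lower at each dose, with medians of 0.24 and 0.27. Of all genes tested, 12.1% were called higher and 17.5% lower at 10 mM, and 15.4% and 21.6% at 20 mM. The counts of this list and of those below are to be read beside these shares, and no list was given a test as a set. JDP2, a repressor that binds AP-1 and CRE sites with Jun, rose most, from 2.38 ± 0.175 FPKM in control to 5.22 ± 0.233 at 20 mM, a log2 change of 0.88 (adjusted p = 3.63e-05). MAFG, a small Maf partner of the NRF factors, rose by 0.61 and NFE2L1 (NRF1), which governs proteasome genes, by 0.53. BATF3, a Jun partner known from dendritic cells, was the member called lower, by -0.30 (adjusted p = 0.0358). ATF3, a stress-induced Jun partner, was called at 20 mM (0.47, adjusted p = 0.0146) and had a value of 0.30 at 10 mM (adjusted p = 0.0994).

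The kinases and factors known to act upstream of FOS, JUN and EGR1 did not move one way. Of 26 genes tested, 5 were called higher and 5 lower at each dose, with medians of -0.09 and -0.06. MAPK3, which encodes ERK1, fell from 20.2 ± 1.45 FPKM to 10.8 ± 0.0722 at 20 mM, a log2 change of -0.84 (adjusted p = 1.28e-05). RPS6KA1 (RSK1), a kinase downstream of ERK, and MAPK9 (JNK2) fell by 0.45 each. On the other side MAP2K7, the kinase that activates JNK, rose by 0.38, ELK3, an ETS partner of serum response factor, by 0.29, and MAP2K2 (MEK2) by 0.25. SRF, serum response factor itself, was lower at both doses while EGR1 was higher, with log2 changes of -0.35 (adjusted p = 0.00189) and -0.28 (adjusted p = 0.00501).

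Of the other immediate early genes, 25 of 27 were tested (EGR3 and EGR4 were not), with 11 higher and 3 lower at 10 mM and 10 higher and 5 lower at 20 mM, and medians of 0.14 and 0.16. KLF4, a zinc-finger factor of epithelial and stem cells, rose most, from 25.1 ± 0.581 to 53.6 ± 1.58 FPKM at 20 mM (log2 change 1.07, adjusted p = 2.01e-06). KLF10, a TGF-beta early gene, rose by 0.87 and TRIB1, a pseudokinase, by 0.73. The nuclear receptor NR4A2 fell by 0.64, NFKBIZ, a nuclear co-factor of NF-kB, by 0.57 and CCN1, a secreted matrix protein, by 0.48.

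**Figure D4:**
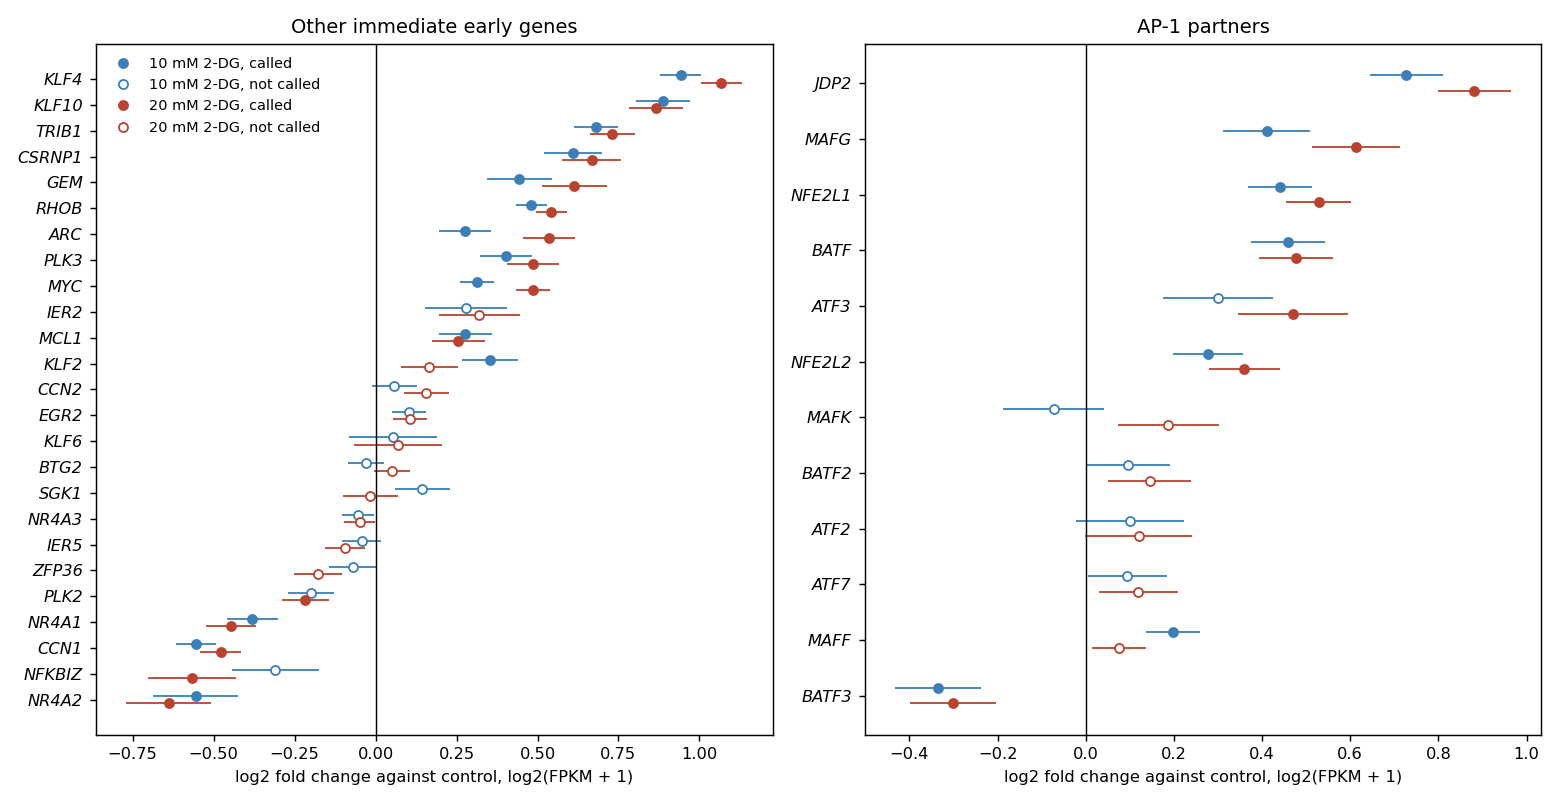
Log2 fold changes against control (horizontal axis, log2(FPKM + 1) scale) of the tested other immediate early genes (left) and AP-1 partners (right) at 10 mM (blue) and 20 mM (red) 2-DG, with whiskers of 1 standard error and filled points for an adjusted p under 0.05. Both panels hold filled points on both sides of 0, from KLF4 (1.07 at 20 mM) down to NR4A2 (-0.64) on the left and from JDP2 (0.88) down to BATF3 (-0.30) on the right.

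The phosphatases related to DUSP1 were split as well. Of 9 listed genes 8 were tested (DUSP9 was not), with 2 higher and 1 lower at 10 mM, 3 higher and 1 lower at 20 mM, and medians of 0.06 and 0.11. DUSP10 and DUSP16, which act mainly on JNK and p38, rose by 0.57 and 0.47 at 20 mM, and DUSP5, a nuclear ERK phosphatase, by 0.22. DUSP4, a close relative of DUSP1, went the other way, from 105 ± 4.85 to 79.3 ± 3.29 FPKM (log2 change -0.40, adjusted p = 0.000869). DUSP1 itself changed by more than any of them at 20 mM, a comparison of values that was given no test.

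Genes known as targets of AP-1 in other settings moved in both directions. Of 21 listed genes 20 were tested (MMP13 was not), with 3 higher and 8 lower at 10 mM and 6 higher and 8 lower at 20 mM, and medians of 0.00 and 0.04. MMP1, an interstitial collagenase, rose from 10.3 ± 0.929 to 53.6 ± 2.70 FPKM at 20 mM (log2 change 2.27, adjusted p = 1.44e-07), and TIMP1, an inhibitor of such proteases, rose by 0.67. MMP10, another of them, went from 0.0684 ± 0.0471 to 0.535 ± 0.117 FPKM, for which the log2 change of 0.52 is shrunk by the pseudocount as for FOSB. The cytokines IL11 and IL6 fell by 2.61 and 2.43 and the chemokine CXCL8 by 1.08. These are mRNA levels, and the binding or activity of AP-1 was not measured.

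Because immediate early genes also answer to handling and temperature, heat shock genes were read beside them. At 10 mM 6 of 9 such genes were called lower and 0 higher, and at 20 mM 8 were lower and 0 higher, with medians of -0.19 and -0.27. Their summed FPKM was 1475 to 1518 in control, 1141 to 1225 at 10 mM and 1099 to 1162 at 20 mM. HSPA1A, HSPB1 and HSPA1B had the largest falls at 20 mM, by 0.86, 0.84 and 0.80, and HSPA1A and HSPA1B are near-identical copies between which reads can be split. Mitochondrial mRNAs, a sign of RNA and cell quality, were called in 0 of 13 cases at 10 mM and in 1 at 20 mM (MT-ND5, log2 change -0.38), and reads on mitochondrial genes made up 7.15% to 9.75% of each library, highest in 10 mM replicate 3. The part of handling or RNA quality in the values of the 10 genes was not tested. In the comparison of the doses 0 genes of any of these lists were called by limma, with 1 to 5 at an unadjusted p under 0.05 among AP-1 partners, upstream genes, other immediate early genes and AP-1 targets.

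Genes with the most similar profile over the 9 libraries were taken from 9817 protein-coding genes with a mean FPKM of at least 1, by Pearson's r of log2(FPKM + 1). These r values describe 9 libraries that share the same dose groups, so that a gene with the same steps between groups reaches a high r, and no p was computed. DUSP1 was most like HMOX1 (r = 0.995), BHLHA15 (0.994) and NCKAP5L (0.988), and FOSL2 was most like CEP85 (0.996), RFWD3 (0.994) and AMOTL2 (0.994). JUN had FBXL19 (0.969), SUPT5H (0.968) and FBXO31 (0.959) as its nearest profiles, FOSL1 had ROBO3 (0.954), FXYD5 (0.949) and MPG (0.947), and EGR1 had DELE1 (0.938), TNFSF15 (0.927) and MKNK1 (0.921). For the genes without a call the nearest were SCNM1 (0.946), MRPL58 (0.922) and RBM7 (0.916) for JUNB, NPIPB15 (0.944), RPL29 (0.940) and RPL15 (0.940) for JUND, and MT-ND2 (0.929), RBM3 (0.922) and IL18 (0.918) for IER3. FOS stood furthest from all others, with YJU2, HSF4 and ZNF444 at 0.812, 0.812 and 0.811, and FOSB was left out because its mean FPKM was under 1.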

How the data were processed

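RNA was taken with a Qiagen RNeasy kit from MDA-MB-231 cells and libraries were made with the SMARTER mRNA-Seq kit. The authors deposited 1 table per library with FPKM for 61552 genes (20495 without a name), made on GRCh38/hg38 per the submitters' processing notes. The aligner, counter, annotation release and strand setting are not given in the sources used here. Whole reads were recovered from the FPKM steps for all 32806 genes above 0, and used for the read filter (10 or more reads, scaled to the median depth, in 3 libraries and a total of 15) and for limma-voom. Totals of 30974968 to 40843638 reads gave FOSB 71 to 194 reads per library and every other member at least 444. Groups came from the treatment label. The study's own test models counts and was not used here, so the test was limma 3.58.1 (R 4.3.3; lmFit, eBayes with a trend) on log2(FPKM + 1) over 16572 genes, with Benjamini-Hochberg adjustment, on all 9 libraries without a replicate block. On data simulated for 20 mM against control, 96.5% of 200 genes changed 2-fold were recovered among 16572, with 12 false calls. The simulated noise was independent and equally strong for every gene and group, and only genes with more reads were changed. The real libraries differ in this, so that these figures do not measure the error rates of the calls reported here. Alternatives were a pseudocount of 0.1, no filter, a stricter filter (FPKM of 1 in 3 libraries), median-ratio and upper-quartile scaling, limma-voom on recovered reads, a replicate block, the study's call rule and leaving out each library. The 10 genes are named in full; of each gene list, up to 3 called genes per direction with the largest change at 20 mM are named, with ATF3 and SRF added after their values were seen, as are the cell type markers in the lists used; 1 more marker is not reported here. Members and lists were chosen with earlier results of these data known. Promoters came from RefSeq (GRCh38.p14) and gene positions from GENCODE 29.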

Additional observations from a re-analysis of the deposited data

How the results depend on the processing

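With the study's call rule 0 members were higher and 0 lower at 10 mM and at 20 mM, and with a pseudocount of 0.1 that rule took 438 genes higher and 566 lower at 10 mM and 621 and 866 at 20 mM, against 96 and 192 and 160 and 324. The count of members lower at 20 mM was 1 with no filter on low reads and 1 with the stricter filter, which left FOSB untested, and ranged from 1 to 2 when each library was left out in turn. Leaving out a library gave 2 to 3 members higher at either dose and 1 lower at 10 mM. Differences that were never called changed sign. For FOS at 20 mM the log2 value was 0.0191 with median-ratio and 0.0530 with upper-quartile scaling and -0.144 to 0.116 on leaving out a library, and for JUNB at 20 mM it was 0.0399, 0.0791 and -0.104 to 0.0454. On leaving out a library, FOSB at 10 mM ranged from -0.0104 to 0.0365, JUNB at 10 mM from -0.0181 to 0.175, IER3 at 10 mM from -0.0264 to 0.121, FOSL1 between the doses from -0.0875 to 0.00191 and JUND between the doses from -0.141 to 0.0236. The cause of these changes was not tested beyond the smaller number of samples or genes. Over all genes, upper-quartile scaling moved the share of calls that were higher from 40.9% to 51.6% at 10 mM and from 41.5% to 54.1% at 20 mM. Over all genes, deviations of same-numbered libraries correlated between -0.406 and 0.293, so replicate numbers were not taken as pairs. The highest correlations were between different numbers: 0.521 for control replicate 1 with 10 mM replicate 2, and 0.488 for control replicate 2 with 10 mM replicate 1. Whether libraries were linked under other numbers was not tested. Some members shared an order: in every group FOS and FOSB were lowest in replicate 3, and DUSP1, EGR1 and JUN highest in replicate 1. These orders were picked out after the values were seen. The share of all genes with such an order was not computed, so they are no result about the members. A limma fit with the replicate number as a block gave 1754 genes higher and 2552 lower at 10 mM. At 20 mM it gave 2276 and 3270. It called 2 members higher and 1 lower at 10 mM, and 3 and 2 at 20 mM. For FOS at 10 mM the block cut the standard error from 0.171 to 0.0895 and the adjusted p from 0.251 to 0.0547. The standard error also fell for DUSP1 and JUN, and by less for EGR1 (0.125 to 0.118), FOSB (0.0678 to 0.0650) and IER3 (0.0905 to 0.0900). It rose for FOSL1, FOSL2, JUNB and JUND. Depth limits FOSB, with as few as 71 reads in a library, more than the other 9 genes.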
